A study of Mus musculus with 4 samples.

Results

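The genes described here are 38 members of the pluripotency network of mouse embryonic stem (ES) cells, taken by name for what they are known to do: core and naive transcription factors, the receptor and signalling parts of the LIF pathway, partner and chromatin proteins, and products enriched in ES cells. The rule for membership uses gene names and no measured value. All 38 were represented on the array, among 20257 genes named through RefSeq, by 52 probes in total. RNA from 4 ES cell lines was measured on one-colour Agilent mouse gene expression arrays, 1 array for each line. Parental ES (EB3) is the untransfected line, without a transgene. Nup98HoxA9 #1 and Nup98HoxA9 #9 are 2 clones that express FLAG-tagged Nup98HoxA9, a leukaemia fusion of the N-terminal FG repeats of human Nup98, a nuclear pore protein, with the C-terminal homeodomain part of HoxA9. HoxA9-Ct is a clone that expresses the same HoxA9 part alone. Transgenes were inserted with the Tol2 transposon, colonies were selected in hygromycin B and picked, and all lines were grown on gelatin in serum with LIF. The promoter of the transgene vector is not given in the sources used here. EB3 cells, and with them all 4 lines, carry a blasticidin resistance gene targeted into a Pou5f1 allele. Each transgenic line is a single picked clone, so what differs between clones and what differs between constructs cannot be told apart for HoxA9-Ct.

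ES cells keep dividing without differentiating as long as a set of transcription factors holds its own expression up. Pou5f1 (Oct4), Sox2 and Nanog bind many of the same enhancers, often at a composite site that joins an octamer to a SOX element. A second layer of factors, among them Klf2, Klf4, Klf5, Esrrb, Tfcp2l1, Tbx3, Gbx2 and Nr5a2, characterises the naive state. Several of these are targets of LIF, which signals through the receptor pair Lifr and Il6st (gp130) to the transcription factor Stat3 and is held back by the inhibitor Socs3. The study asked what Nup98HoxA9 does to gene expression in ES cells, and the lines were compared here for the genes that keep such cells undifferentiated.

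The sequences below are the 250 bases before the RefSeq transcription start (GRCm38.p6, on the strand of the gene, 5′ to 3′) of the 4 members that were more than 2-fold lower in clone #9 than in parental ES, with Nanog as a core gene whose window holds the composite octamer and SOX element. Capitals mark matches on either strand to the motifs searched.
Nanog, downstream start (chr6:122707315-122707564, plus strand): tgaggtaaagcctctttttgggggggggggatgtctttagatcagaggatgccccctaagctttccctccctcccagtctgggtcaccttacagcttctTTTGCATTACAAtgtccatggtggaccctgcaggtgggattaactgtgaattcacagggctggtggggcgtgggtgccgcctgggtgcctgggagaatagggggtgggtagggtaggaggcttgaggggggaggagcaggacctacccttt
Lin28a (chr4:134018817-134019066, minus strand): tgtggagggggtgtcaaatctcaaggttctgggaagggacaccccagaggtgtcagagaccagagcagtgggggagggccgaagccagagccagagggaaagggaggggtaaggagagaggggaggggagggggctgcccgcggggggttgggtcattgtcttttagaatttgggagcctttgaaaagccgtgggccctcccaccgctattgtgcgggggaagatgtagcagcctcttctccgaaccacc
Tcea3 (chr4:136247707-136247956, plus strand): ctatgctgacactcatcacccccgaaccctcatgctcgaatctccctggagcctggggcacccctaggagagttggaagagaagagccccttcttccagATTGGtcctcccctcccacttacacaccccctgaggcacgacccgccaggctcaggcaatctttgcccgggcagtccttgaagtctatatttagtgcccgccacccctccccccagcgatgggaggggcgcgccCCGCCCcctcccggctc
Nr5a2, upstream start (chr1:136960449-136960698, minus strand): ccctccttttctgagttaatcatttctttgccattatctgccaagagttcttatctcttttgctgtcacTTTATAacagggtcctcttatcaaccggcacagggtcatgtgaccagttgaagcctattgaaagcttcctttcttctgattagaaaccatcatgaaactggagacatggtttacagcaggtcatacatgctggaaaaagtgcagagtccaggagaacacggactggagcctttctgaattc
Gbx2 (chr1:89931177-89931426, minus strand): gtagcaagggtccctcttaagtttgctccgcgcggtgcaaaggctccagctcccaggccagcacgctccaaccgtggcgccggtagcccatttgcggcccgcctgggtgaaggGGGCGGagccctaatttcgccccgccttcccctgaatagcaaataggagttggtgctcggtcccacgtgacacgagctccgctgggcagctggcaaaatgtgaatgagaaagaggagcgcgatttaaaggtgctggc

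Of the 38 members, 25 had a RefSeq promoter window. In the printed Nanog window the octamer core TTTGCAT (bases -151 to -145 before the start) runs into CATNACAA, the octamer end joined to a SOX core (bases -147 to -140). The octamer core was present in the windows of 3 members, Nanog, Sox2 and Zfp42, and in 4.12% of all 32851 windows of this length. The joined element was present in the Nanog window alone among members and in 2.99% of all windows. Both strands were searched for every motif. The HOX-PBX site TGATTNAT matched 0 members and 2.82% of all windows, the STAT site TTCCNGGAA matched 0 members and 0.913%, and the nuclear receptor element AAGGTCA matched Lifr and 4.08%. The GC box GGGCGG was found in the windows of 18 members and in 32.7% of all windows, CCAAT in 12 members and 33.8%, and TATAAA in 3 members and 12.4%. A member counts if any of its windows matches, while each percentage is a share of single windows, so these measures are unlike. In the 4 printed windows of members that were lower in clone #9, the matches are a CCAAT box and a GC box on the reverse strand of Tcea3, TATAAA on the reverse strand of Nr5a2 and a GC box of Gbx2, while Lin28a has no match. A match is a description of letters, and no binding was measured here.

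All signals are log2 values of the background-subtracted spot intensity relative to the 75th percentile of the array, which was between 209 and 253 intensity units, and ratios are differences of these values. The software called between 49.9% and 53.0% of spots well above background and 0 saturated. Every member was well above background in all 4 lines at its brightest probe, which is the probe given below. For comparison, 12553 genes passed the same criterion, and these serve as the background for all fold counts. The level of a probe depends on its sequence, so levels are compared between lines and not between genes. Of the 11 members with more than 1 probe, the ratios of 8 agreed within 0.25 between probes in every line. The arrays hold bulk RNA, in which fewer cells that express a gene and less RNA per cell cannot be told apart.

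The network was expressed in every line. The number of members within 1.5-fold of parental ES was 32 and 26 for clones #1 and #9 and 36 for HoxA9-Ct, which is 84.2%, 68.4% and 94.7% of members beside 87.8%, 81.8% and 94.6% of all 12553 genes. In clone #1 and HoxA9-Ct these shares were near those of genes at large, and in clone #9 fewer members than genes at large were this close to parental ES. The median ratio of the members was -0.05 and -0.27 in clones #1 and #9 and -0.03 in HoxA9-Ct, while the medians over all genes were -0.01, -0.06 and -0.0005. The members sat somewhat lower in clone #9 than genes at large, at 71.1% of members below parental ES against 57.2% of all genes. The lines share the parental array, so an error of that array moves all 3 ratios of a gene together.

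**Figure D1:**
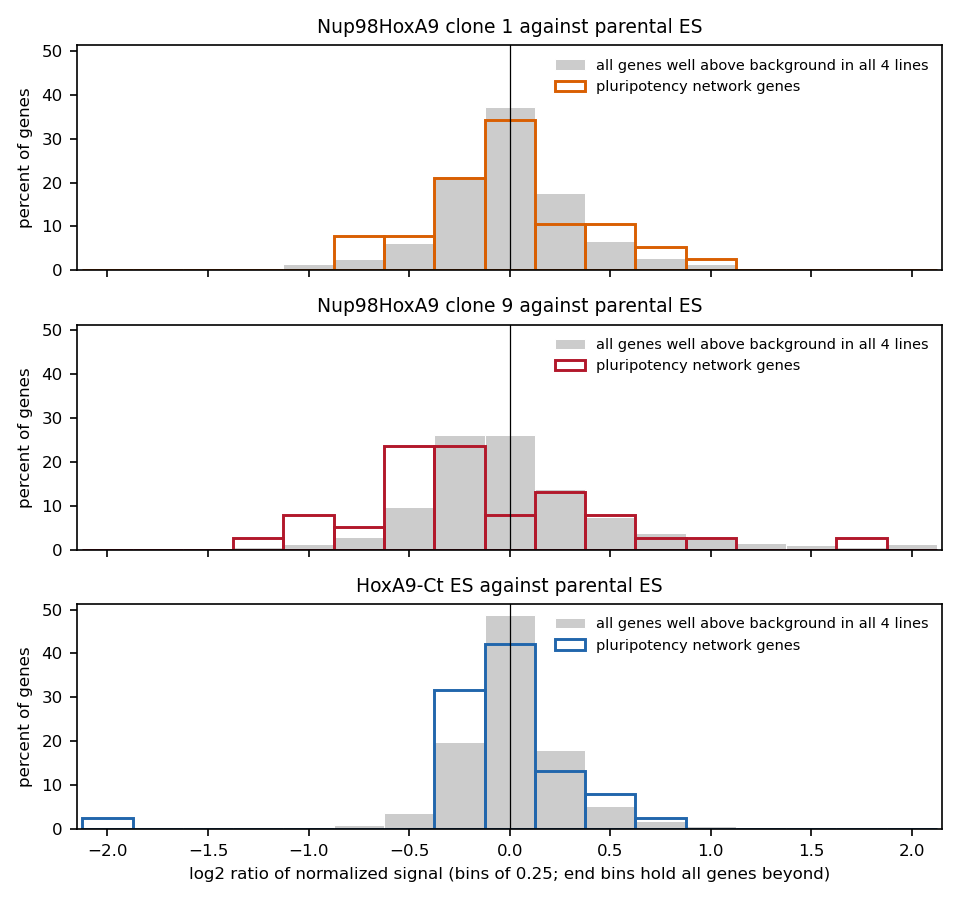
Percent of genes (vertical axis) by log2 ratio of the normalized signal to parental ES (horizontal axis, bins of 0.25), for the 38 pluripotency network genes (coloured outlines) and the 12553 genes well above background in all 4 lines (grey bars), 1 panel per line. The outline for clone #9 is displaced to the left of the grey bars, with medians of -0.27 and -0.06, and the outline for HoxA9-Ct is centred near 0 with Gbx2 alone at the far left.

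Counted by size, 0 members were more than 2-fold higher in both Nup98HoxA9 clones than in parental ES, beside 1.65% of all genes, and 0 were more than 2-fold lower in both, beside 0.789%. At 1.5-fold, 2 members were higher in both clones (Tbx3 and Jam2, 5.26% of members beside 4.74% of all genes) and 2 were lower in both (Lin28a and Tcea3, 5.26% beside 2.77%). In clone #1, 0 members were past 2-fold in either direction, beside 2.04% of genes higher and 2.03% lower. In clone #9, 1 member was more than 2-fold higher (Jam2, 2.63% of members beside 5.53% of genes) and 4 were more than 2-fold lower (Lin28a, Gbx2, Nr5a2 and Tcea3, 10.5% beside 1.98%). In HoxA9-Ct, 0 members were more than 2-fold higher, beside 0.908% of genes, and 1 was more than 2-fold lower (Gbx2, 2.63% beside 0.382%). Between the clones, 0 members were more than 2-fold apart, beside 3.91% of genes. The signals of both clones lay below those of parental ES and HoxA9-Ct for 18 members, 47.4% beside 30.1% of all genes, and above both for 8 members, 21.1% beside 21.9%. For 7 of the 18 the gap between the groups was under 0.10, and it was widest for Lin28a (0.78) and Tcea3 (0.59). With 3 other ways of scaling, Jam2 passed 2-fold in both clones. With 1 array per line these counts describe 4 arrays and have no test.

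**Figure D2:**
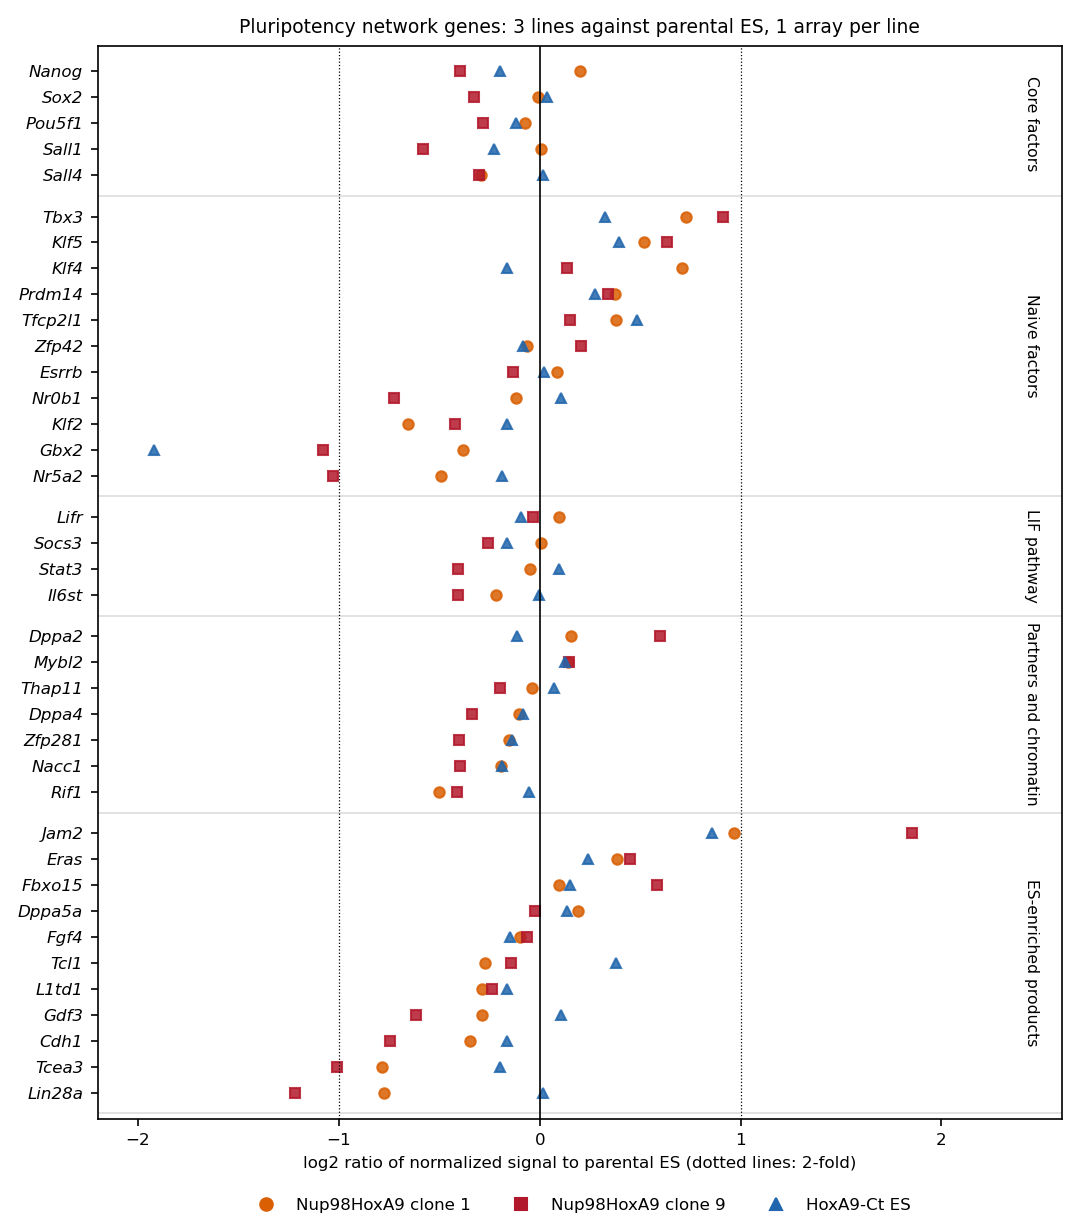
Log2 ratio to parental ES (horizontal axis) of each of the 38 members (vertical axis, grouped by role and sorted by the mean of the clones) in Nup98HoxA9 clone #1 (circles), clone #9 (squares) and HoxA9-Ct (triangles), 1 array per line; dotted lines mark 2-fold. Jam2 lies furthest to the right in all 3 lines, and Lin28a, Tcea3, Nr5a2 and Gbx2 lie past the left dotted line in clone #9.

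All 5 core factors lay below parental ES in clone #9, with median ratios of -0.01 and -0.33 in clones #1 and #9 and -0.12 in HoxA9-Ct. Pou5f1, the POU factor at the head of the network, had signals of 6.56 in parental ES, 6.49 and 6.28 in clones #1 and #9 and 6.44 in HoxA9-Ct. Sox2, its usual DNA-binding partner, had 3.65, 3.64, 3.32 and 3.68 in the same order. Nanog, a homeodomain factor that stabilises the undifferentiated state, had -1.61, -1.41, -2.01 and -1.81. Clone #9 was the lowest line for all 3 genes, by 0.28 for Pou5f1, 0.33 for Sox2 and 0.40 for Nanog against parental ES. Clone #1 was within 0.07 of parental ES for Pou5f1 and Sox2 and lay above it for Nanog, by 0.20, so the clones did not agree on the direction for Nanog. The zinc finger factor Sall4, which binds with Pou5f1 and Nanog, had 4.09 in parental ES, 3.80 and 3.79 in clones #1 and #9 and 4.11 in HoxA9-Ct. Both clones lay about 0.30 below the other lines at this probe. At its other probes Sall4 had ratios of -0.12 and -0.22, and -0.23 and -0.13, in clones #1 and #9. In HoxA9-Ct Sall4 had 0.01 and 0.41 there. Its relative Sall1 had 2.0, 2.01, 1.42 and 1.78, so that clone #9 lay 0.58 below parental ES and clone #1 at its signal. Nanog and Sall1 were more than 1.5-fold apart between the clones, with log2 differences of -0.60 and -0.59 (clone #9 minus clone #1). Of all genes, 88.4% were within 1.5-fold. The Nanog probe was the weakest of those used for the members, 1 spot at 75.1, 83.6, 62.9 and 59.8 intensity units in the same line order. None of these 5 genes passed the limma test in any comparison. The standard error of the clone mean against parental ES, set to 0.56 for every probe, exceeded that difference for each of the 5. This error pools weak and bright probes, with a limma prior SD of 0.454. Fitting only those that passed the background criterion in every line gave a prior SD of 0.198. Whether the differences of these 5 genes exceed their standard errors in that narrower fit was not tested.

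The naive factors lay on both sides of parental ES. Highest relative to parental ES stood Tbx3, a T-box factor that supports self-renewal, with signals of 5.27 in parental ES, 6.0 and 6.19 in clones #1 and #9 and 5.60 in HoxA9-Ct. Both clones lay above both other lines, at 1.65-fold and 1.88-fold the parental signal, and HoxA9-Ct was at 1.25-fold. Klf5, a Krüppel-like factor with roles in both ES cells and trophoblast, had 4.68, 5.20, 5.32 and 5.08, so that all 3 transgenic lines lay above parental ES. Klf4, a direct target of Stat3, had 4.71, 5.42, 4.85 and 4.55, which puts clone #1 apart from the other 3 lines at 1.63-fold the parental signal. Klf2, the third of the Krüppel-like factors that act redundantly in ES cells, ran the other way, with 6.19, 5.54, 5.77 and 6.03. The 3 Krüppel-like factors thus showed no common direction in the clones. The probes of Klf2, Klf5, Tbx3, Sall1 and Rif1 sit among the final eighth of spot rows on the array, where 2.22% of genes were more than 2-fold higher in clone #1 and 5.78% in clone #9, beside 2.02% and 5.50% on the other rows. More than 2-fold lower were 2.08% and 2.48% of the genes there in clones #1 and #9 and 0.806% in HoxA9-Ct, beside 2.02%, 1.91% and 0.325% on the other rows.

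Among the nuclear receptors of the group, Esrrb, a central activator of the naive programme, hardly differed, with 7.37 in parental ES, 7.46 and 7.24 in clones #1 and #9 and 7.40 in HoxA9-Ct. Nr5a2 (Lrh1), which can take the place of Pou5f1 in reprogramming, had 4.68, 4.19, 3.65 and 4.49. Clone #9 was 2.04-fold and clone #1 was 1.41-fold below parental ES, and a second Nr5a2 probe gave ratios of -0.50 and -1.05 in clones #1 and #9 and -0.27 in HoxA9-Ct, next to -0.49, -1.03 and -0.19 at the brighter one. Nr0b1 (Dax1), an X-linked receptor that binds Pou5f1, was printed 10 times per array and had 4.21 ± 0.04, 4.09 ± 0.03, 3.48 ± 0.04 and 4.31 ± 0.06 (SD between 10 spots of 1 array). The spots of clone #9, between 3.39 and 3.54, did not overlap those of any other line, whereas clone #1 lay 0.12 below parental ES. These spots measure the printing and scanning error of 1 RNA sample and not the spread between cultures or clones. How often the spots of other probes printed 10 times lay apart between lines was not counted.

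Gbx2, a homeobox factor downstream of Stat3, was the member with the largest single difference. Its signal was 2.94 in parental ES, 2.56 and 1.86 in clones #1 and #9 and 1.02 in HoxA9-Ct, so that all 3 transgenic lines were lower and HoxA9-Ct the lowest. The signal in HoxA9-Ct was 3.78-fold below parental ES, a ratio that 0.024% of all genes undercut, and clone #9 was 2.11-fold and clone #1 was 1.30-fold below. The log2 difference between HoxA9-Ct and parental ES was -1.92 (limma standard error 0.64, adjusted p = 0.32), and the mean of the clones exceeded HoxA9-Ct by 1.19 (standard error 0.56, adjusted p = 0.61). Over 13 ways of processing the arrays the adjusted p for HoxA9-Ct against parental ES ran from 6.16e-08 to 1 and was under 0.05 in 3 of them, while the difference itself stayed between -1.99 and -1.80. The remaining naive factors stayed within 1.5-fold of parental ES in all lines: Prdm14, a PR-domain regulator, was higher in all 3 transgenic lines by 0.28 to 0.38, Tfcp2l1, a Stat3 target of the CP2 family, by 0.15 to 0.48, and Zfp42 (Rex1), a common marker of undifferentiated ES cells, had ratios of -0.06, 0.21 and -0.08.

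**Figure D3:**
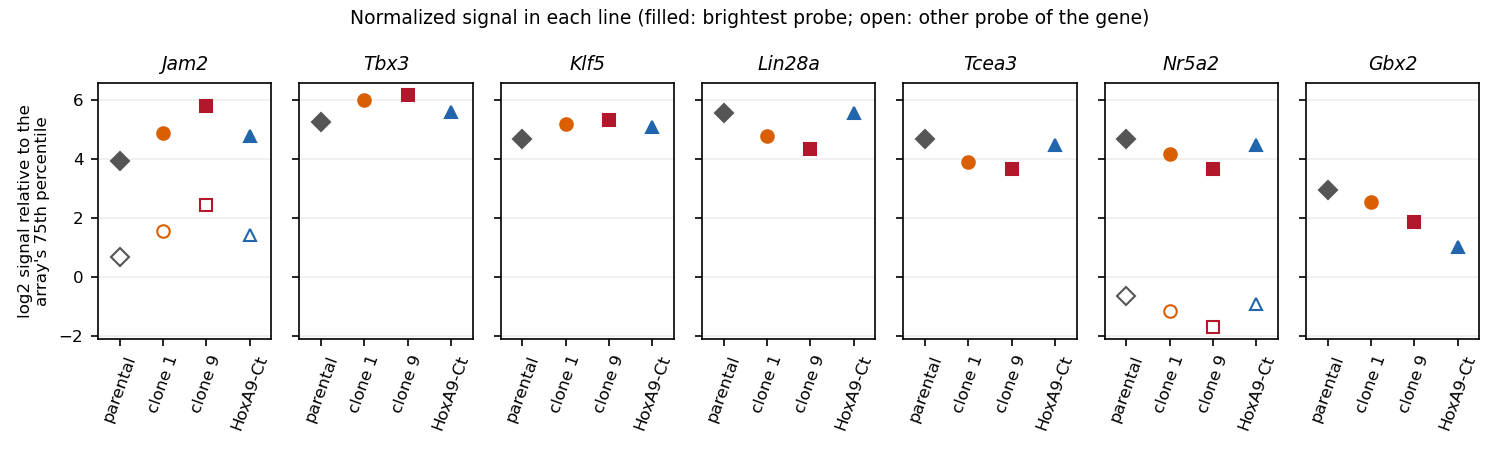
Log2 signal relative to the 75th percentile of the array (vertical axis) in parental ES (diamonds), clone #1 (circles), clone #9 (squares) and HoxA9-Ct (triangles) for 7 members, 1 panel per gene and 1 array per line; filled symbols are the brightest probe and open symbols the other probe of Jam2 and Nr5a2. Both probes of Jam2 rank the lines alike with parental ES lowest, both clones lie under both other lines for Lin28a, Tcea3 and Nr5a2, and HoxA9-Ct is lowest for Gbx2.

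The 4 LIF pathway genes were within 1.5-fold of parental ES in every line, as were 87.8%, 81.8% and 94.6% of all genes. Lifr, which binds LIF, had 2.65 in parental ES, 2.75 and 2.62 in clones #1 and #9 and 2.55 in HoxA9-Ct. Il6st, the shared signal transducer gp130, had 1.49, 1.28, 1.09 and 1.49. Stat3, the transcription factor that carries the LIF signal to the nucleus, was printed 10 times per array and had 3.86 ± 0.04, 3.81 ± 0.02, 3.45 ± 0.04 and 3.96 ± 0.04 (SD between spots, 10, 10, 8 and 10 spots). Socs3, which is induced by Stat3 and shuts the receptor down, had 5.38, 5.39, 5.12 and 5.22. Il6st, Stat3 and Socs3 were lowest in clone #9, by 0.26 to 0.41 against parental ES. The probes of Lifr disagreed in clone #9, where the other 2 gave 0.28 and -0.42 beside -0.03. Lifr is the only member on chromosome 15, whose 508 measured genes had a median ratio of 0.41 in clone #9, against -0.08 for the genes of all other chromosomes.

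**Figure D4:**
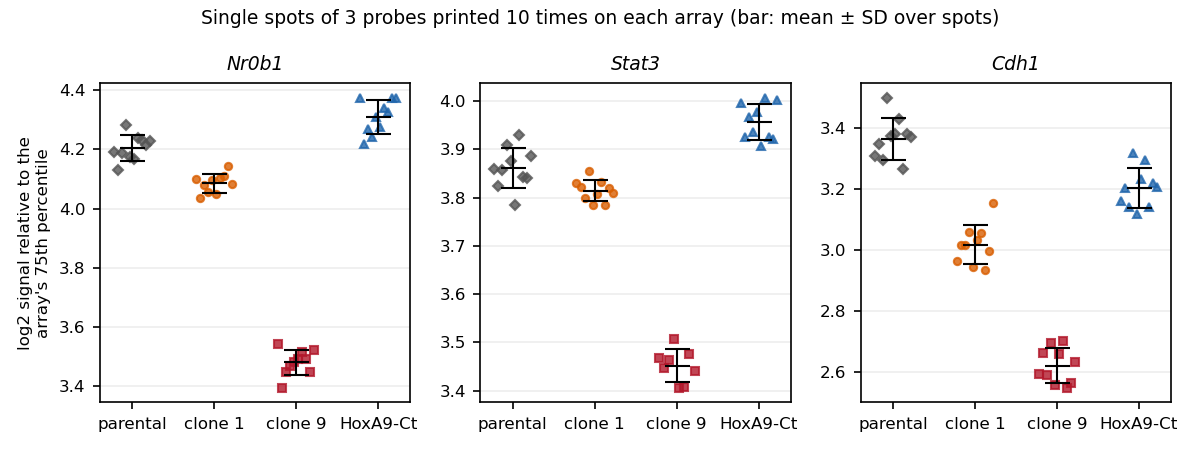
Log2 signal relative to the 75th percentile of the array (vertical axis) of every spot of the Nr0b1, Stat3 and Cdh1 probes that were printed 10 times on each array, by line (horizontal axis), without spots marked as outliers; black bars are the mean and SD over spots. For each of these genes the spots of clone #9 lie below all spots of the other 3 lines, a difference between these arrays larger than the spot error. It has no replicate culture or second array behind it. How often other probes printed 10 times show such a gap was not counted.

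The 7 partners and chromatin proteins had median ratios of -0.10 and -0.34 in clones #1 and #9 and -0.08 in HoxA9-Ct. Rif1, a telomere and replication timing protein bound by the core factors, had 3.75 in parental ES, 3.25 and 3.34 in clones #1 and #9 and 3.70 in HoxA9-Ct, with the clones 0.36 or more below the other lines. Zfp281, Nacc1, Thap11 and Dppa4 were lower in both clones by 0.04 to 0.40. In HoxA9-Ct, Zfp281, Nacc1 and Dppa4 had ratios of -0.14, -0.19 and -0.08, near those of clone #1 (-0.15, -0.19 and -0.10). Thap11 had 0.07 in HoxA9-Ct. Dppa2, which acts as a heterodimer with Dppa4, ran opposite to its partner in the clones, with 3.92, 4.08, 4.52 and 3.81. A second Dppa2 probe gave a ratio of 0.57 in clone #9 but -0.0051, no rise, in clone #1. Mybl2, a cell cycle factor that is abundant in dividing ES cells, had ratios of 0.14, 0.15 and 0.12 in clone #1, clone #9 and HoxA9-Ct.

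Among the groups, the ES-enriched products had the widest range of the mean of the clones against parental ES, from -1.0 to 1.41. Jam2, a junctional adhesion molecule, had signals of 3.93 in parental ES, 4.90 and 5.79 in clones #1 and #9 and 4.79 in HoxA9-Ct. Parental ES was the lowest line, the clones stood 1.95-fold and 3.61-fold above it and HoxA9-Ct 1.81-fold, and the second Jam2 probe gave log2 ratios of 0.88, 1.74 and 0.75 beside 0.97, 1.85 and 0.86. Of all genes, 2.22% had a higher ratio than Jam2 in clone #1, 1.36% in clone #9 and 1.24% in the HoxA9-Ct clone. The mean of the clones exceeded parental ES by 1.41 (limma standard error 0.56, adjusted p = 0.33), and the adjusted p ran from 9.12e-08 to 0.70 over 13 ways of processing, under 0.05 in 3. HoxA9-Ct, which lacks the Nup98 part, was also above parental ES, and the mean of the clones exceeded it by 0.55.

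Lin28a, which blocks the maturation of let-7 microRNAs, was the member with the lowest mean of the clones, at 5.55 in parental ES, 4.78 and 4.34 in clones #1 and #9 and 5.57 in HoxA9-Ct. The clones were 1.71-fold and 2.32-fold below parental ES, and HoxA9-Ct was at the parental signal. Tcea3, a transcription elongation factor of the SII family, followed the same order with 4.68, 3.90, 3.67 and 4.48, and was 1.72-fold lower in clone #1 and 2.02-fold lower in clone #9. For both genes the 2 clones lay closer to each other, 0.44 and 0.22 apart, than to either other line. The mean of the clones was below parental ES by a log2 difference of -1.0 for Lin28a (limma standard error 0.56, adjusted p = 0.98) and -0.90 for Tcea3 (standard error 0.56, adjusted p = 1). Over 13 ways of processing, the adjusted p for Lin28a ran from 0.000763 to 1 and that for Tcea3 from 0.00494 to 1, each under 0.05 in 2.

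Cdh1 (E-cadherin), which holds ES colonies together, was read from 10 spots and had 3.37 ± 0.07 in parental ES, 3.02 ± 0.06 and 2.62 ± 0.06 in clones #1 and #9 and 3.20 ± 0.07 in HoxA9-Ct (SD between spots). Gdf3, a ligand of the TGF-beta family, had 5.11, 4.82, 4.50 and 5.22. Both genes were lower in the clones than in the other lines, more so in clone #9. Fbxo15, an F-box gene used as a reporter of the ES state, had 5.55, 5.65, 6.13 and 5.70 and was highest in clone #9, and Eras, a Ras family member expressed in ES cells, was higher in all 3 transgenic lines by 0.24 to 0.45. The RNA-binding protein gene L1td1 was lower in all 3 transgenic lines by 0.16 to 0.29, and the Akt coactivator gene Tcl1 had ratios of -0.27 and -0.14 in the clones and 0.38 in HoxA9-Ct. Fgf4, the growth factor that primes ES cells for differentiation, and Dppa5a, a KH-domain protein gene, were within 0.19 of parental ES in all 3 lines.

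Groups were tested with limma across all 55562 probes, with the clones as the 2 replicates of Nup98HoxA9 and 1 array each for the other lines. At a Benjamini-Hochberg adjusted p of 0.05, 0 of 38 members were called between Nup98HoxA9 and parental ES, beside 1.41% of all probes, 0 between HoxA9-Ct and parental ES, beside 0.405%, and 0 between Nup98HoxA9 and HoxA9-Ct, beside 1.36%. At an unadjusted p under 0.05, limma marked 1 member in each comparison: Jam2 (unadjusted p = 0.0112, beside 6.26% of probes), Gbx2 (0.00279, beside 3.51%) and Gbx2 again (0.0324, beside 6.55%). The fit gave every probe the same standard error, 0.56 for the clones against either other line and 0.64 for HoxA9-Ct against parental ES, and the smallest log2 difference called over all probes was 1.89, 2.39 and 1.89 in the 3 comparisons. A member whose difference is below these values could not be called, so a p above the threshold does not show that it was equal between lines.

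Genes of the LIF and STAT3 pathway beyond the members were measured in the same way. Of 20 such genes, 17 were well above background in all lines, and limma called 0 in any comparison (at an unadjusted p under 0.05, Junb and Ifitm3 between Nup98HoxA9 and HoxA9-Ct). The median ratios of the 17 were 0.0017 and -0.02 in clones #1 and #9 and 0.05 in HoxA9-Ct. Jak1, a kinase of the receptor, had 2.13 in parental ES, 2.66 and 2.22 in clones #1 and #9 and 2.01 in HoxA9-Ct. Ifitm3, an interferon-inducible membrane protein gene, was the 1 gene of the list more than 2-fold higher in HoxA9-Ct, with 3.45, 2.67, 3.57 and 4.46. Of 25 other ES-enriched genes and regulators, 24 were well above background in all lines, limma called 0 in any comparison (at an unadjusted p under 0.05, Mycn and Sall3 between Nup98HoxA9 and parental ES), and the median ratios were -0.19, -0.33 and -0.05. Mycn, a growth-promoting Myc family member, had 4.03, 3.31, 2.36 and 3.62, and Tdh, the threonine dehydrogenase of ES cell metabolism, had 8.91, 8.57, 7.80 and 8.79. Mycn and Tdh were named after their values were seen, and in both clone #9 was lowest and clone #1 next, as for Lin28a, Tcea3 and Nr5a2. In the same list Slc2a3, Etv4, Tdgf1, Tcf7l1 and Alpl went the other way, above parental ES in both clones.

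Markers of other cell types also differed between these lines. Of 7 primitive endoderm markers, 7 were well above background in each clone, 6 in parental ES and 3 in HoxA9-Ct, and their summed signal was 0.18 in parental ES, 1.96 and 2.29 in clones #1 and #9 and -0.88 in HoxA9-Ct on the log2 scale. Limma called 3 of the 7 (Gata6, Sox17 and Pdgfra) higher in Nup98HoxA9 than in parental ES, beside 1.41% of all probes, 1 (Sox17) lower in HoxA9-Ct than in parental ES, beside 0.405%, and 6 (all but Sox7) higher in Nup98HoxA9 than in HoxA9-Ct, beside 1.36%. With quantile normalization, and over probes that passed the background criterion on at least 1 array, 0 probes were called in any comparison, so none of the marker calls in this paragraph held there (at an unadjusted p under 0.05, limma then marked between 992 and 5373 probes). The summed signal of 4 primed epiblast markers, mostly Dnmt3b, was 6.47, 5.88, 5.60 and 6.67. Otx2 and Fgf5 were called lower in Nup98HoxA9 than in parental ES, with Fgf5 well above background in parental ES alone. Against HoxA9-Ct, Otx2 was called lower and Fgf5 was not called. Of 6 trophectoderm markers 2 were well above background in parental ES, 4 and 5 in clones #1 and #9 and 2 in HoxA9-Ct. Their summed signals, nearly all Tfap2c, were 2.98, 3.49, 3.20 and 2.63. Limma called Cdx2 and Elf5, neither well above background in parental ES, higher in Nup98HoxA9 than in parental ES. Against HoxA9-Ct, Elf5 and Hand1 (well above background in clone #9 alone) were called higher and Cdx2 was not called. Cdx2 had ratios of 2.77 and 3.39 in clones #1 and #9 and 2.34 in HoxA9-Ct, where it was below the limit. Of 4 mesoderm markers, T, Mixl1 and Mesp1 were below that limit in every line, and the summed signal, nearly all Kdr, lay between 2.89 and 3.39. The sums of 4 neural markers lay between 0.36 and 0.75. Among them Pax6 was called lower in Nup98HoxA9 than in either other line and was below the limit in both clones. The sums of 5 fibroblast markers, nearly all Thy1, lay between 2.93 and 4.12, highest in clone #9, with Postn below the limit in every line. The part that other cell types had in the lower signals of Lin28a, Tcea3 and Nr5a2 or the higher signals of Jam2 and Tbx3 was not tested. The ES cell markers themselves (Pou5f1, Sox2, Nanog, Zfp42, Esrrb and Klf4) summed to 8.77, 8.82, 8.74 and 8.72 in the same order. Most of that sum is Esrrb, Zfp42 and Pou5f1, so it hardly registers Sox2 and Nanog. Pou5f1, Sox2 and Nanog were each lowest in clone #9.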

How the data were processed

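Total RNA of 4 mouse ES cell lines was labelled with Cy3 and hybridised to 4 arrays on 1 slide. The authors extracted the images with Feature Extraction 10.10.1.1 (per the submitters' processing notes), and the deposited files hold background-subtracted, detrended spot intensity without scaling between arrays, with flags. Over the brighter spots, the median ratio of the deposited matrix to these intensities was 3.30 in parental ES and 3.63 in HoxA9-Ct. In clones #1 and #9 it was 3.49 and 3.19. The limma prior SD was 0.242 with the matrix and 0.454 here, so 1 constant per array does not describe all its spots. Here the log2 intensity was set relative to the 75th percentile of 59305 spots outside the controls, outlier spots were left out, the spots of a probe were averaged, and each gene was represented by its brightest probe (mean over lines). RefSeq transcripts named 26762 of 55681 probes. The 55562 probes with a value in all lines were fitted with limma 3.58.1 in R 4.3.3 (3 groups, 1 residual degree of freedom, infinite prior degrees of freedom, prior SD 0.454, Benjamini-Hochberg threshold 0.05). The fit was also run on simulated data with the same spread for every probe, as the fit assumes. Such data cannot show how the fit performs where weak and bright probes differ in spread. Counts and promoter searches used Python 3.11.15.

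Groups followed the labels. The p-values rest on the spread between 2 clones pooled over all 55562 probes, which the lines with 1 array are assumed to share. In the main fit the spread of a single gene between the clones has no weight. Members, role groups and marker lists were chosen with earlier results of these data known. By rule, values in each line were given for Pou5f1, Sox2, Nanog, the LIF pathway genes, members called by limma, past 2-fold in HoxA9-Ct, in both clones or between them, and the 3 highest and 3 lowest by the mean of the clones. Klf2, Klf4, Esrrb, Nr0b1, Sall1, Sall4, Rif1, Dppa2, Cdh1, Gdf3 and Fbxo15 were added after their values were seen, and the others were described by role. Alternatives changed background correction, scaling, filters, probes, source of values, eBayes options, reference, fold threshold and clones.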

Additional observations from a re-analysis of the deposited data

How the results depend on the processing

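Direction held for 259 of 262 values of named members recomputed under the alternatives, and 3 changed sign when 1 clone was left out: the mean of the clones against parental ES ran from -0.40 to 0.20 for Nanog and from -0.26 to 0.0077 for Socs3, positive without clone #9, and from -0.032 to 0.098 for Lifr, negative without clone #1. Many of the 262 values could not change, so this tally overstates how much was tried. The eBayes options and probe filters leave a ratio as it is, and the floor lies below every member. Keeping outlier spots or averaging probes moves only genes with flagged spots or several probes. The median ratio of the members lay between -0.27 and -0.05 when either clone was left out, and with other settings between -0.20 and -0.08 for the mean of the clones. Calls of members differed between settings. Between Nup98HoxA9 and parental ES 0 members were called, but 4 with normexp background correction (Tbx3, Lin28a, Tcea3 and Jam2), 1 with values floored at the lowest signal well above background (Jam2) and 5 with trend and robust on (Nr5a2 added). Between HoxA9-Ct and parental ES the call was Gbx2 alone with each of these 3 settings (1 member each), and between Nup98HoxA9 and HoxA9-Ct it was Lin28a and Gbx2 (2 members) with normexp and with trend and robust.

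Over all probes, calls between Nup98HoxA9 and parental ES went from 781 to 0 with quantile normalization (5069 at an unadjusted p under 0.05), 140 with the authors' matrix, 0 over probes that passed the background criterion on at least 1 array (2224 unadjusted), 1243 with trend and robust, and, in settings chosen after seeing the data, 11 over probes that passed it on all arrays and 61 there with trend. Calls between HoxA9-Ct and parental ES went from 225 to 73 with normexp, 0 with quantile (4179 unadjusted), 125 with the floor, 18 with the matrix, 0 on at least 1 array (992 unadjusted), 0 on all arrays (536 unadjusted) and 1 there with trend. Calls between Nup98HoxA9 and HoxA9-Ct went from 756 to 0 with quantile (5373 unadjusted), 133 with the matrix, 0 on at least 1 array (2136 unadjusted), 1284 with trend and robust, 1 on all arrays and 74 there with trend. The cause of these shifts was not tested.

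Members more than 2-fold from parental ES in both clones numbered 0, and 1 (Jam2) with quantile normalization, with centring on the median of probes well above background and with the authors' matrix, 4 at 1.5-fold, and 0 to 5 when 1 clone was left out (5 without clone #1). At 1.5-fold, 2 members passed in HoxA9-Ct and 5 between the clones. Leaving out a clone leaves no residual degree of freedom, so those values have no test. No paired analysis was possible because the clone numbers of Nup98HoxA9 have no counterpart in the lines with 1 array. All arrays share 1 slide, so a slide block was not run. Of 38 members, 35 were read from 1 spot, and no line has a second culture, so the spread between cultures was not measured.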
